A study of Mus musculus with 12 samples.

Results

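CTCF is a zinc finger protein that binds insulators and the anchors of chromatin loops. The sites described here are the CTCF peaks of mouse liver that were called in every library and stood higher in the score order of the starved livers than in that of the fed livers. Chromatin immunoprecipitation and sequencing (ChIP-seq) with an antibody to CTCF was done on whole livers of wild-type male C57BL6/Ncrl mice, 3 to 4 months old and on normal chow. One group fed ad libitum and gave its livers at ZT16 (zeitgeber time, hours after lights on), and the other was starved for 24 h and gave them at ZT13, so feeding and clock time cannot be told apart. Each group had 3 ChIP libraries with 1 peak list each, of 49030 to 74950 peaks in fed and 23926 to 30752 in starved livers. Their 6 input libraries were not analysed here.

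Peaks of all 6 lists were merged into 76061 sites wherever they overlapped by at least 1 bp, and 22131 of these sites held a peak in every list. In each list the shared sites were ordered by their best peak score, as a percentile from 0 (weakest) to 100 (strongest) among the shared sites alone. A member is a shared site whose lowest starved percentile exceeded its highest fed percentile and whose mean starved percentile was at least 10 points above its mean fed percentile. This held for 1478 of the 22131 shared sites, or 6.68%. The mirror image, every starved percentile below every fed one by the same margin, held for 1391 sites, or 6.29%. Because the fed and starved percentiles chose the members, their differences are given as a description, with no test. Leaving out any 1 library raised the number of members to between 2213 and 2730, or 9.95 to 10.7% of the shared sites. A group of 2 libraries is separated from one of 3 more easily. The number was 2346 without fed 1, 2370 without fed 2 and 2213 without fed 3. It was 2347 without starved 1, 2290 without starved 3 and 2730 without starved 2. The last came from a larger set of 26125 shared sites, of which it made up 10.4%.

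CTCF reads DNA through its central zinc fingers and recognises a long motif, of which the search here used the core CC, 3 free bases, AG, 2 free bases, GGC. Bound CTCF halts the cohesin ring as it extrudes a chromatin loop, so that sites facing each other become loop anchors and borders of topological domains. Sites are bound in most tissues, and weaker ones vary more between cell types than strong ones do. Liver is made mostly of hepatocytes, which in fasting turn from lipid synthesis to the oxidation of fatty acids, ketone production and gluconeogenesis. A ChIP peak does not measure expression, so the labelled tissue could not be checked with marker genes here. In whole liver, a change in the mix of cells and a change of binding within a cell cannot be told apart.

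Sequence was available only for promoter windows at annotated transcription starts. The DNA of other members, and the parts of a member outside its window, were not searched. Promoter windows from RefSeq on GRCm38.p6, the build that mm10 names, run from 250 bases before to 50 after a start and overlapped 98 of the 1433 members on chromosomes for which windows were used. The bases before the start are printed for 6 of them, 5′ to 3′ on the strand of the gene, with every match to the core on either strand in capitals. Pik3r1 and Galnt10 are shown as promoters of large difference whose windows held no match, and the rest of those 2 sites was not searched. Necab2 and Radil had the largest differences among promoters with a match before the start. Fam133b and Khk were chosen after their values were seen, Fam133b for a match that ends in AGGGGGC and Khk because it encodes fructokinase, a liver enzyme.
Pik3r1, chr13:101768218-101768467, minus strand: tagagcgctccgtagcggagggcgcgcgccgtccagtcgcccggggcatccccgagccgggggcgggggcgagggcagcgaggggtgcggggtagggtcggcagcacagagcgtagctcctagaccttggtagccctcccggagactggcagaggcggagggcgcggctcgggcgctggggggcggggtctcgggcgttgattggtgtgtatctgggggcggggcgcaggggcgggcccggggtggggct
Galnt10, chr11:57645192-57645441, plus strand: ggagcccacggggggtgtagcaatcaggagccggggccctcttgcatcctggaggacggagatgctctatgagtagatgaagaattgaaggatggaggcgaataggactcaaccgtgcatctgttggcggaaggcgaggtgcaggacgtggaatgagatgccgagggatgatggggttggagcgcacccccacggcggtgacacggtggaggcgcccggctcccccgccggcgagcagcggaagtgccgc
Necab2, chr8:119446469-119446718, plus strand: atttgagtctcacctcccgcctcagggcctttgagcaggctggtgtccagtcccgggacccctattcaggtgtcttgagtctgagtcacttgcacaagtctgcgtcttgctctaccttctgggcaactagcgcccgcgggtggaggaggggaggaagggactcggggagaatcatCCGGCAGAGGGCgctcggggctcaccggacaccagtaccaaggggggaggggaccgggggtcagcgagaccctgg
Radil, chr5:142551099-142551348, minus strand: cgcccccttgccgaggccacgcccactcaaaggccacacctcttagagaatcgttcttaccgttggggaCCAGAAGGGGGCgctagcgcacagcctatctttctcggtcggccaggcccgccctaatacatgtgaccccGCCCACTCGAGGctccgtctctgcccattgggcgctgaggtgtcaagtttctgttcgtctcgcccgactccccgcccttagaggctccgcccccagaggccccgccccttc
Fam133b, chr5:3543583-3543832, plus strand: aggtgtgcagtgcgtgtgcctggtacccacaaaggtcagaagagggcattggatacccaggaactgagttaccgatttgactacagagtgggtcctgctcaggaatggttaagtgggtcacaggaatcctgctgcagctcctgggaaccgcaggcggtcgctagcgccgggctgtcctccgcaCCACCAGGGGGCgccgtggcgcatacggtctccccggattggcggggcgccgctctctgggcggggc
Khk, chr5:30921309-30921558, plus strand: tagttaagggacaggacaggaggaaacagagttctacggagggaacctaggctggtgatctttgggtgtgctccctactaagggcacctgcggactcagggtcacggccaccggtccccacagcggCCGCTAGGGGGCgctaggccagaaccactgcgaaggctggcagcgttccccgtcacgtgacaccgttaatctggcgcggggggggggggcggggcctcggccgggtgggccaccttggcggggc
All 250 printed bases lay within the member in each case. Of the 110 promoter windows that members overlapped, 34 (30.9%, exact 95% interval 22.4 to 40.4) held a match. The share was 28.0% of the 2594 windows under any shared site, 18.3% of the 126 under sites ranked lower (11.9 to 26.1), and 8.61% of all 32851 windows. Their median G+C content was 61.0% under members and 61.7% under any shared site, against 52.7% over all windows. Counted once by position, there were 34 matches in the members' windows, and 32 of them, at 29 members, lay inside the called site. Without starved 2 the members' share was 20.4%, and without the other libraries, each in turn, it was at most 34.0%. The share under any shared site was not computed again for these. Intervals cover counting error only, and windows are not replicates.

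The matches differed in their free letters. To compare them, 8 are printed on the strand of the motif, with the letters fixed by the search in capitals and the free ones in lower case.
Necab2: CCggcAGagGGC
Dtd1: CCggtAGagGGC
Mlh3: CCgccAGacGGC
Slain2: CCggcAGggGGC
Fam133b: CCaccAGggGGC
Adprhl1: CCagcAGggGGC
Khk: CCgctAGggGGC
Flt3l: CCactAGgtGGC
At Dtd1 the match began 11 bases after the start, and at Slain2 it ran across the start. Those of Slain2, Fam133b, Adprhl1 and Khk shared the run AGGGGGC, while Necab2 and Dtd1 had AGAGGGC. The members at these 8 promoters differed between starved and fed livers by 28.1 percentile points at Necab2, 27.1 at Dtd1, 24.5 at Mlh3, 21.95 at Slain2, 16.7 at Fam133b, 16.4 at Adprhl1, 13.7 at Khk and 13.3 at Flt3l.

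Across all members, the median percentile was 32.3, 32.2 and 32.02 in the fed libraries and 54.7, 55.5 and 53.1 in the starved ones. The 3 libraries of each group thus stood within 3 points of each other at the median. The difference of the group means had a median of 18.0 points, with quartiles of 14.2 and 22.9 and a maximum of 64.1. It reached 20 points at 593 members (40.1%), 30 at 88, 40 at 11 and 50 at 5. For the sites ranked lower, 605 reached 20 points, 142 reached 30, 22 reached 40 and 1 reached 50.

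**Figure D1:**
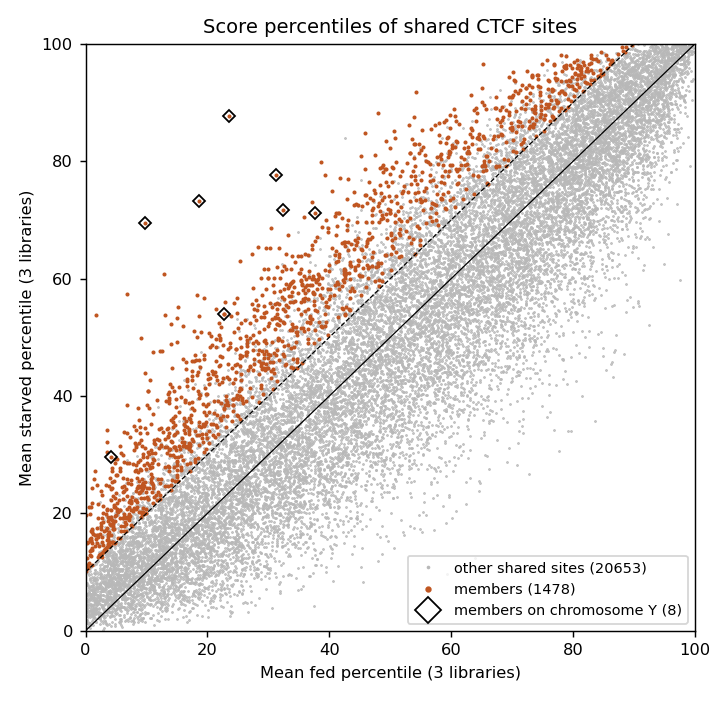
Mean percentile of each shared CTCF site over the 3 fed libraries (x axis) and over the 3 starved libraries (y axis), both from 0 to 100; the solid line marks equal percentiles and the dashed line a difference of 10 points. The 1478 members lie above the dashed line, and among them the 8 members of chromosome Y stand farthest from it as a group, with differences of 25.5 to 64.1 points.

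Members were found over most of the score order. The share of shared sites that were members was 14.3% where the mean fed percentile was at most 10, 8.39% between 20 and 30, 5.96% between 50 and 60, 2.37% between 80 and 90 and 0% above 90, where the rule leaves no room for a difference of 10 points. By mean starved percentile it was 0% up to 10, which the rule also fixes. It was 4.68% between 10 and 20 and between 6.70 and 8.36% in each further step of 10. Both orders use the percentiles that chose the members, so their slopes follow in part from the choice. By the mean over both groups, 6.79% of autosomal shared sites were members up to 20 and 8.40% between 20 and 40. Between 40 and 60 it was 7.35%, and above 60 it was 5.10%. The margin between the groups was often narrow: the lowest starved percentile lay a median of 5.19 points above the highest fed percentile, and 25% of members had a margin of at most 2.42 points. The highest fed percentile came from fed 1 at 509 members, from fed 2 at 527 and from fed 3 at 443, with 1 tie. The lowest starved one came from starved 1 at 481, from starved 2 at 451 and from starved 3 at 546, so no single library set the margin at most of them.

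What the percentiles measure is an order among shared sites, not an amount of CTCF. The scores, which are the authors' own peak values, were lower in the starved lists at members as elsewhere: the median score of members was 103, 93.4 and 155 in the fed and 51.9, 31.0 and 48.1 in the starved libraries. Over all shared sites it was 130, 124 and 192 and then 46.7, 27.7 and 45.4. The rule chose members by the order of these scores, so the contrast with all shared sites is part of the choice. Ranked among all peaks of their own list, which in fed livers holds many more weak peaks, members had median percentiles of 73.1, 69.0 and 79.8 in fed and 67.0, 58.1 and 64.7 in starved livers. By that ranking the rule left 2 members, both among the 1478, and 14039 sites ranked lower, and 17 of the 39 sites named here by rule had a lower mean in starved livers. Those whole-list ranks come from lists of different length and show no change in themselves.

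The members with the largest differences lay at the end of chromosome Y, inside or near genes of varied function, and in 2 stretches far from any protein-coding gene. The 12 with the largest difference included 4 sites of chromosome Y, described below with their neighbours. Of the others, the first was inside Ddc (chromosome 11, 11844108 to 11844913), the gene of the enzyme that makes dopamine and serotonin, and also within the noncoding gene Gm51937. Its percentiles were 1.42, 0.377 and 3.37 in the fed and 45.5, 57.4 and 58.7 in the starved libraries, a difference of 52.2 points. It was among the weakest shared sites of every fed list and near the middle of every starved list. The scores behind this order were 36.7, 18.6 and 73.5 in the fed and 42.3, 32.3 and 53.7 in the starved lists. With only peaks scoring at least 30.4 the site was no longer shared, since fed 2 fell below that limit. It was not shared either when all lists were cut to equal length.

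Slc6a16, an orphan transporter gene of the neurotransmitter transporter family, held a member inside the gene (chromosome 7, 45264072 to 45264763) at 12.5, 2.25 and 5.78 in fed and 50.98, 64.1 and 57.1 in starved libraries. Inside Vcan, which encodes the matrix proteoglycan versican, a member (chromosome 13, 89667876 to 89668470) stood at 8.64, 16.9 and 12.97 in fed and 61.6, 62.9 and 57.9 in starved livers. The group means were 6.84 ± 5.20 in fed and 57.4 ± 6.56 in starved livers at Slc6a16 and 12.8 ± 4.12 in fed and 60.8 ± 2.58 in starved livers at Vcan (SD, n = 3 each). The groups were separated by 38.5 and 41.01 points. Both sites were named for a large difference and a wide gap, so this separation is part of the choice. With only peaks scoring at least 30.4, the differences were 15.4 points at Slc6a16 and 19.1 at Vcan. Outside genes, a member lay 3703 bp from H2-Q7, a class I gene of the major histocompatibility complex (chromosome 17, 35434801 to 35435437), with percentiles of 41.7, 36.95 and 37.5 in fed and 75.7, 87.4 and 76.8 in starved livers. Genes of this family are close copies of each other, and the sources used here do not give how reads that fit several copies were treated.

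Pik3r1 encodes the p85 regulatory subunit of phosphoinositide 3-kinase, which couples the insulin receptor to Akt. The member there covered an annotated start of the gene (chromosome 13, 101768133 to 101769000), whose sequence is printed above. Its percentiles were 16.2, 14.7 and 14.7 in the fed and 67.3, 45.2 and 52.9 in the starved libraries. The fed libraries lay within 2 points of each other, and the lowest starved library was 29.01 points above them. Scores were 76.8, 63.5 and 113 in fed and 67.5, 24.8 and 47.9 in starved lists. With only peaks scoring at least 30.4 the site was no longer shared, since starved 2 fell below that limit. Ranked among all peaks of each list, it had a mean percentile of 66.5 in fed and 63.1 in starved livers. Larp1, an RNA-binding protein that controls translation under mTORC1, was the nearest protein-coding gene, at 21879 bp, to a member on chromosome 11 (57950801 to 57951539) with percentiles of 35.4, 50.8 and 57.7 in fed and 92.9, 85.9 and 85.97 in starved livers. The remaining members of the 12 were intergenic. On chromosome 16 (3122844 to 3123340) the percentiles were 15.3, 16.3 and 7.77 in fed and 48.5, 71.4 and 41.6 in starved livers, and on chromosome 8 (20122102 to 20122640) 11.6, 8.31 and 7.58 in fed and 33.6, 58.1 and 57.7 in starved livers. Both lay over 100 kb from any protein-coding gene, and in each the starved libraries spread more widely than the fed ones. With only peaks scoring at least 30.4, the differences there were 15.6 points on chromosome 16 and 8.25 on chromosome 8.

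**Figure D2:**
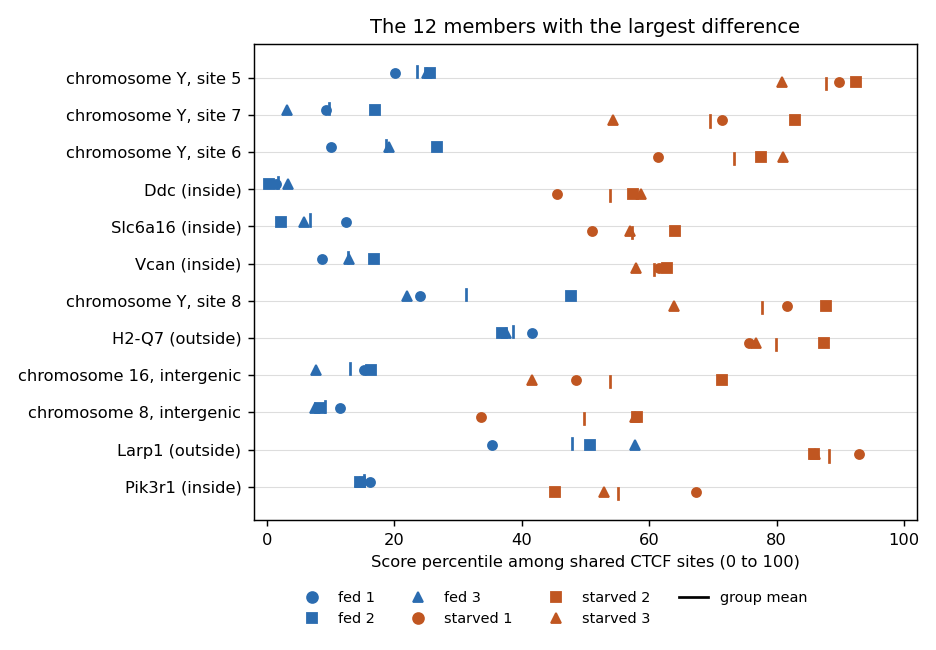
Score percentile among shared sites (x axis, 0 to 100) of the 12 members with the largest difference, 1 row each, in the 3 fed (blue) and 3 starved (orange) libraries; short bars are group means, and marker shape gives the replicate. Blue and orange markers are separated in each row, by 16.1 points at site 8 of chromosome Y and by 55.3 points at site 5.

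Chromosome Y held the longest unbroken run of members. It had 10 shared sites (from 90720363 to 90811421), all in its distal part around the start of the pseudoautosomal region, the stretch it shares with chromosome X. The last 8 of them, in order along the chromosome, were members (80.0%, exact 95% interval 44.4 to 97.5). At the fifth site (90800180 to 90801293), inside the noncoding gene Gm33272, the percentiles were 20.1, 25.6 and 25.1 in the fed and 89.8, 92.4 and 80.9 in the starved libraries. Its scores were 83.4, 82.7 and 138 in fed and 113, 71.5 and 82.5 in starved lists, so that starved 1 scored above fed 1 whereas the median score of all shared sites was lower in every starved list. The difference of 64.1 points was the largest of any member.

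The neighbouring sites had the same order of groups. The sixth site (90803387 to 90804129) had 10.04, 26.7 and 19.2 in fed and 61.4, 77.6 and 80.95 in starved livers, and the seventh (90804788 to 90805640) 9.29, 17.03 and 3.13 in fed and 71.4, 82.8 and 54.3 in starved livers. The third site, the nearest of the 8 to the protein-coding gene Gm52481, had 22.04, 30.7 and 15.2 in fed and 37.7, 70.01 and 54.2 in starved livers. The tenth had 2.03, 8.79 and 1.55 in fed and 34.2, 29.5 and 25.2 in starved livers, the lowest fed values of the run. The first 2 sites were not members, with percentiles of 17.5, 24.8 and 13.2 in fed and 22.9, 27.04 and 24.99 in starved libraries at the first, and 10.4, 10.95 and 10.4 in fed and 19.6, 14.6 and 21.1 in starved livers at the second. The 8 members share a stretch of 79195 bp and are not independent of each other. With peaks within 500 bp merged, the sixth and seventh sites fell together, with a difference of 59.6 points. The difference at the fifth was then 50.1, so the count of 8 depends on how peaks are merged. With only peaks scoring at least 30.4, it was 71.5 at the fifth, 42.6 at the sixth and 37.7 at the seventh. Mid1-ps1, a pseudogene of Mid1, is annotated between sites 3 and 4 of the chromosome. Reads from sequence shared with X fit both chromosomes, and how such reads were placed was not tested.

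**Figure D3:**
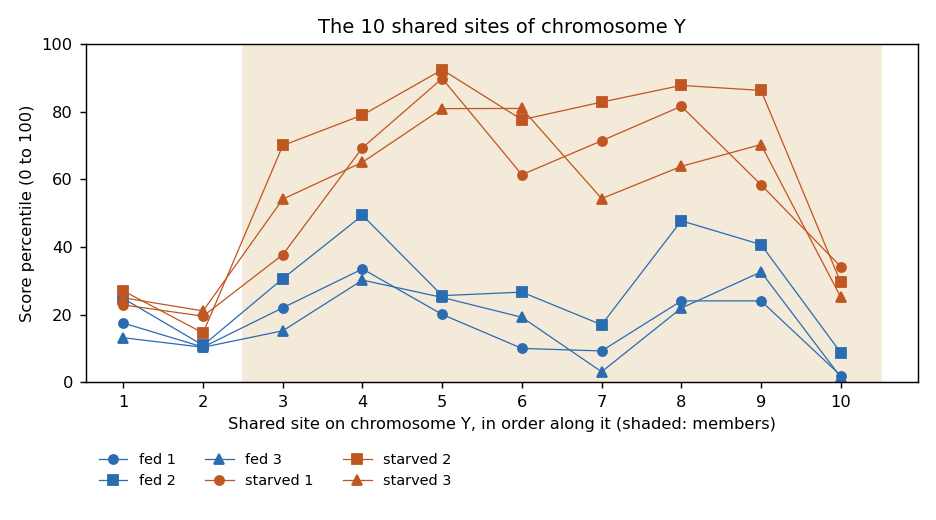
Score percentile (y axis, 0 to 100) of the 10 shared sites of chromosome Y in their order along it (x axis), for the 3 fed (blue) and 3 starved (orange) libraries, with members shaded. Starved libraries lie above fed ones at each of the 8 members, and the gap is widest at site 5, at 55.3 points.

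Chromosome X had a larger share of members than any autosome, with 48 of its 450 shared sites (10.7%, exact 95% interval 7.97 to 13.9), against 1422 of 21671 on the autosomes (6.56%, 6.24 to 6.90). Of the X-linked shared sites 11 (2.44%) were ranked lower, against 6.37% on the autosomes. Single autosomes ran from 5.10% members on chromosome 19 to 7.54% on chromosome 1. Over all 450 shared sites of X, members or not, the median percentile was 22.6, 24.8 and 23.4 in the fed and 29.4, 29.3 and 29.1 in the starved libraries, while the autosomal medians stayed between 50.5 and 50.7. The sites of X ranked low in both groups. Males have a single X, and whether that bears on the ranks was not tested. Of all members 3.25% were on X, and of all shared sites 2.03%. With only peaks scoring at least 30.4, the median over all lists, X held 80 of 9577 shared sites (0.835%) and 3 of the 631 members (0.475%), so its share of members was then no larger than its share of sites. Among sites whose mean percentile over both groups was at most 20, 10.8% of X-linked and 6.79% of autosomal sites were members; between 20 and 40 it was 11.8% and 8.40%, between 40 and 60 11.4% and 7.35%, and above 60, with 45 X-linked sites, 4.44% and 5.10%. No test was made of these shares, since sites are not replicates.

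The X-linked members with the largest differences lay inside Gucy2f, a guanylate cyclase of photoreceptors (chromosome X, 142096912 to 142097495), near Sytl4, a gene of granule secretion, and inside Rtl9, Fhl1 and Mid1. At Gucy2f the percentiles were 2.77, 6.83 and 1.03 in fed and 36.2, 27.04 and 39.3 in starved libraries. At Rtl9, a gene derived from a retrotransposon, they were 23.7, 26.9 and 32.1 in fed and 59.5, 62.3 and 42.7 in starved livers. Mid1 encodes a ubiquitin ligase and crosses the pseudoautosomal boundary in this species. Its member (169862811 to 169863254) had 8.52, 5.80 and 2.46 in fed and 34.4, 33.7 and 26.6 in starved livers. These 5 were picked by size after the share on X had been seen.

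**Figure D4:**
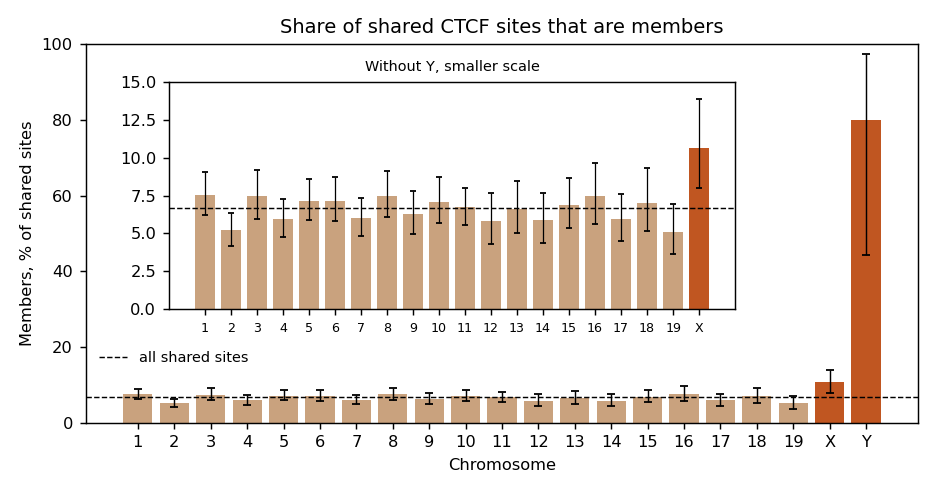
Share of shared CTCF sites that are members on each chromosome (y axis, %), with exact 95% binomial intervals; the dashed line marks the share over all shared sites, 6.68%, and the inset repeats the bars without Y on a scale to 15%. X reaches 10.7% and Y 80.0%, the latter from 10 sites.

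Of the 278 genes in 15 lists of liver metabolism, signalling, chromatin and cell types, 277 matched the annotation, and 149 shared sites lay within 5 kb of an end of one of them. Of these, 16 (10.7%) were members and 8 (5.37%) were ranked lower. Without starved 2 there were 39 members near listed genes, without any other single library 16 to 24, and with only peaks of score 30.4 or more there were 6. The totals differed too, with 2730 members of 26125 shared sites without starved 2 and 631 of 9577 under the score limit. The shared sites near listed genes were not counted in these settings, so the counts give no share. The median difference over the 149 was 1.45 points, against 0.53 over the 10870 shared sites near any gene, of which 6.54% were members. By list, members were 4 of 20 shared sites in hepatocyte identity, 3 of 10 in the circadian clock and 2 of 12 in CTCF and cohesin genes. They were 1 of 19 in fatty acid and triglyceride synthesis, 1 of 21 in insulin and nutrient signalling, 1 of 13 in autophagy, 1 of 11 in fatty acid oxidation and ketogenesis and 1 of 5 in sterol and bile acid metabolism. Gluconeogenesis had 0 of 11 and imprinted genes 0 of 12. Sites ranked lower numbered 2 each in autophagy and in fatty acid oxidation and ketogenesis, 1 each in hepatocyte identity, the clock, sterol and bile acid metabolism and stellate cells, and 0 in every other list. Of the marker lists of other liver cells, macrophages had 1 of 1, lymphocytes 1 of 3, stellate cells and fibroblasts 0 of 7, endothelial cells 0 of 2 and cholangiocytes 0 of 2.

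The hepatocyte list had 20 shared sites with a median difference of -0.0019 points, 4 members and 1 site ranked lower, and its members lay at genes of lipoproteins and plasma proteins. The site at Apob, the structural protein of very low density lipoprotein, lay inside the gene near its start (chromosome 12, 7978464 to 7979289), with percentiles of 67.4, 75.7 and 67.5 in fed and 98.2, 91.9 and 95.5 in starved livers. It was a strong site in all 6 libraries. At Apoe, the apolipoprotein that hepatocyte receptors bind, the site spanned an end of the gene and reached into Tomm40 (chromosome 7, 19700902 to 19701806), and percentiles were 63.1, 55.5 and 64.3 in fed and 82.4, 83.3 and 84.3 in starved livers. The 3 starved libraries agreed within 2 points there. Within Trf, which encodes the plasma iron carrier transferrin, a site (chromosome 9, 103225271 to 103226074) had 38.2, 19.2 and 33.8 in fed and 68.6, 77.6 and 59.8 in starved livers. At Apoa1, the main protein of high density lipoprotein (chromosome 9, 46229260 to 46230517), the groups were barely apart, with 40.1, 56.2 and 47.9 in fed and 56.8, 69.5 and 60.2 in starved libraries.

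In the list of fatty acid and triglyceride synthesis, Lpin2, a phosphatidate phosphatase, counted through a site 4485 bp from its end that was inside its neighbour Emilin2 (chromosome 17, 71254303 to 71255321), at 16.3, 14.6 and 24.03 in fed and 46.1, 37.1 and 47.5 in starved livers. No enzyme of gluconeogenesis on the list had a member.

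The 3 members of the clock list lay at or near Bhlhe40, Per2 and Cry2, which encode repressors. How many of the list's 10 shared sites lay near repressors was not counted. Bhlhe40, a repressor of clock output, had a strong site over an end of the gene (chromosome 6, 108660629 to 108662315), at 90.9, 89.8 and 78.4 in fed and 96.7, 96.3 and 99.01 in starved livers. Per2 had a weak site over an end of the gene (chromosome 1, 91458524 to 91460178), at 5.63, 5.65 and 2.39 in fed and 10.6, 27.5 and 15.5 in starved livers. For Cry2 the site was outside the gene (chromosome 2, 92437894 to 92438493), at 45.7, 53.3 and 56.4 in fed and 75.9, 61.4 and 79.2 in starved livers. The groups differed in collection time by design, and its part in these values cannot be told apart from that of feeding. The 3 clock genes were only 3 of 10 shared sites, and 1 other site of the list was ranked lower.

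Both Ctcf and its paralogue Ctcfl had a member within 5 kb. Ctcfl, the germline paralogue of CTCF, held one inside the gene (chromosome 2, 173097167 to 173097893), where the gene Gm40011 is annotated too. The percentiles were 19.6, 25.5 and 2.71 in fed and 62.1, 40.7 and 52.8 in starved libraries, with fed 3 far below the other fed libraries. Near Ctcf itself, the member lay 2750 bp beyond an end of the gene, inside Carmil2 and Gm33578 (chromosome 8, 105685672 to 105686311). It had 52.6, 48.4 and 62.6 in fed and 63.7, 78.7 and 81.8 in starved livers, a margin of only 1.13 points. The rest of that list, cohesin and its regulators, had no member among its shared sites.

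The autophagy gene Atg16l1, which helps to attach lipid to LC3, had a weak site (chromosome 1, 87755739 to 87756335) at 2.47, 5.07 and 3.34 in fed and 8.01, 26.8 and 21.3 in starved livers. C1qa, a complement gene of macrophages, had a member 1386 bp outside it, closer to C1qc (chromosome 4, 136893932 to 136894530), at 8.59, 2.68 and 4.00 in fed and 10.7, 32.2 and 18.4 in starved livers. The member near Cd79a, a B cell receptor gene, was inside its neighbour Arhgef1 (chromosome 7, 24904133 to 24905670), at 43.8, 57.3 and 40.6 in fed and 75.6, 76.8 and 63.6 in starved livers. Marker genes stand here for positions in the genome and say nothing of how many macrophages or B cells the livers held.

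**Figure D5:**
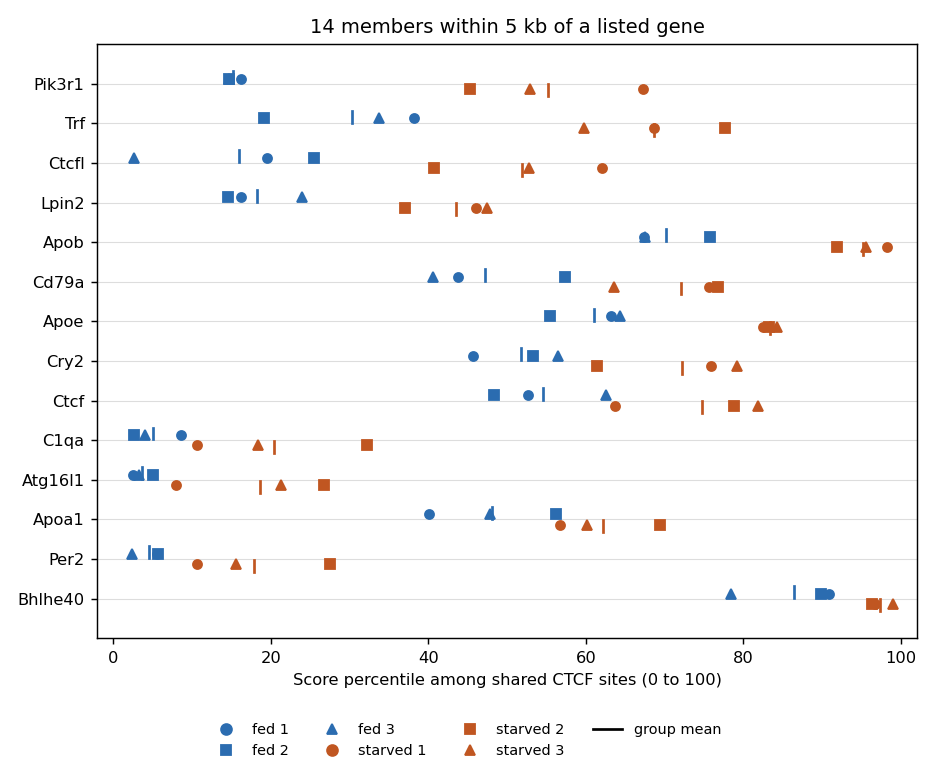
Score percentile among shared sites (x axis, 0 to 100) of 14 members within 5 kb of a listed gene, named by that gene, in the 3 fed (blue) and 3 starved (orange) libraries; short bars are group means, and marker shape gives the replicate. The gap between the groups runs from 0.59 points at Apoa1 to 29.0 points at Pik3r1.

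After Pik3r1, the promoter members with the largest differences stood at genes with little in common. At Tmem94 (chromosome 11, 115765320 to 115766400) the percentiles were 3.19, 6.48 and 19.7 in fed and 59.9, 20.6 and 51.2 in starved livers, with starved 2 barely above fed 3. Galnt10, an enzyme that starts O-linked glycosylation, shares its site with the noncoding gene 4933424L21Rik (chromosome 11, 57644765 to 57645970), which had 26.9, 12.6 and 15.6 in fed and 54.9, 48.1 and 47.2 in starved livers. Its starved libraries lay within 8 points of each other and clear of the fed ones. Hjurp, the chaperone that loads the centromeric histone CENP-A, had a site (chromosome 1, 88277007 to 88278489) at 62.7, 85.9 and 47.2 in fed and 98.4, 98.6 and 92.4 in starved livers. It was strong in every starved list, while its fed libraries spread widely. Cnnm4, a magnesium transporter gene, shares its site with the start of Gm33454 (chromosome 1, 36471481 to 36472265), at 57.9, 49.2 and 53.6 in fed and 84.5, 86.3 and 80.3 in starved livers. Both groups were tight there, and 22.5 points apart.

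The others were Ccdc65, a gene of motile cilia (chromosome 15, 98707733 to 98708472), Clcn4, a chloride and proton exchanger (chromosome 7, 7298975 to 7299995), and a site over a start of Necab2 that is also inside Osgin1 (chromosome 8, 119446048 to 119447020). Ccdc65 had 61.99, 35.2 and 21.2 in fed and 72.8, 63.8 and 73.4 in starved libraries. Clcn4 had 47.9, 50.3 and 26.8 in fed and 78.8, 75.7 and 59.2 in starved livers, and Necab2 44.2, 57.1 and 58.4 in fed and 84.3, 94.02 and 65.8 in starved livers. In each of the 3 the closest fed and starved libraries were less than 9 points apart.

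Of the 141 members with a mean starved percentile above 90, the 5 with the highest are described. Sh3glb1, which encodes a membrane-bending protein of autophagy and apoptosis, had a site over its start (chromosome 3, 144719464 to 144721206) at 97.4, 96.7 and 74.7 in fed and 99.9, 99.5 and 99.9 in starved libraries. It was already high in fed 1 and fed 2, and fed 3 alone stood lower. The others, nearest to H2-T24, Nemp1, Cystm1 and Myl3, had mean fed percentiles of 88.1, 88.7, 88.1 and 88.5 and mean starved percentiles of 99.5, 99.5, 98.9 and 98.6. Such sites could move by little more than the required 10 points.

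At the edge of the rule, members and non-members were alike. The 3 members just inside the limit of 10 points lay near Unc93a2 (fed mean 2.63, starved mean 12.6), near Mapk1ip1 (84.5 and 94.5) and in an intergenic stretch of chromosome 15 (75.2 and 85.2). The 3 sites just outside it, with no overlap of groups, were near Litaf (57.4 and 67.4), inside Rarb, a retinoic acid receptor gene (0.836 and 10.8), and inside Cdc73 (82.6 and 92.6). Without any limit on the difference, 1883 shared sites (8.51%) had every starved percentile above every fed one, and 1632 (7.37%) every one below.

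Most members had no other member next to them, which a set of only 6.68% of the shared sites makes likely in itself. In the order of shared sites along the chromosomes, 1232 members had a non-member on both sides, 113 pairs were adjacent, 4 runs held 3 members and 1, that of chromosome Y, held 8. Another member lay within 50 kb of 213 members (14.4%) and of 11.6% of all shared sites. Within 10 kb it was 4.33% of members and 2.81% of all shared sites. Elovl5, which elongates polyunsaturated fatty acids, was the nearest protein-coding gene to 3 members 20782 to 29218 bp away, which made up 1 of the runs of 3 (chromosome 9, 78005301 to 78014396). Their percentiles were 24.1, 31.1 and 32.5 in fed and 64.3, 38.4 and 57.6 in starved libraries at the first, 61.6, 61.6 and 71.1 in fed and 84.5, 72.7 and 89.3 in starved livers at the second, and 11.7, 25.9 and 27.3 in fed and 34.6, 27.5 and 41.97 in starved livers at the third.

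Further runs of 3 lay between Cxcl14, a chemokine gene, and Slc25a48, a mitochondrial carrier gene, on chromosome 13 (56279043 to 56373343), and from Plpp2 to Theg on chromosome 10 (79532604 to 79595930). The largest difference among their 6 sites was that of a site 64617 bp from Slc25a48, at 13.1, 10.7 and 32.9 in fed and 64.3, 43.5 and 44.8 in starved libraries. At Plpp2, which encodes a lipid phosphatase, the member covered a start of the gene and had 66.4, 44.9 and 58.4 in fed and 82.4, 78.6 and 68.6 in starved livers. Inside Theg, a gene of the testis, the percentiles were 8.82, 15.2 and 11.1 in fed and 31.6, 46.9 and 39.6 in starved livers.

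The position of members relative to genes is given beside that of all shared sites, with no test of the difference. Inside an annotated gene lay 866 of 1478 members (58.6%, exact 95% interval 56.0 to 61.1), 63.2% of all shared sites and 64.3% of those ranked lower (61.7 to 66.8). A promoter window was overlapped by 6.84% of members (5.59 to 8.27), 9.73% of all shared sites and 7.99% of those ranked lower (6.59 to 9.57). Within 5 kb of a gene end the shares were 48.1%, 49.1% and 46.2%, and over 100 kb from any annotated start they were 10.5%, 9.19% and 11.3%. The table of genes used here gives no exons, so exonic, intronic and untranslated positions were not told apart. Among sites with a mean percentile of at most 20 over both groups, 7.18% of those inside genes and 6.53% of those outside were members. From 20 to 40 it was 7.99% and 9.53%, from 40 to 60 6.26% and 9.40%, and above 60 4.72% and 5.76%. Without starved 2, the shortest list, the rule was applied to 26125 shared sites and 63.4% of its members lay inside a gene. The share inside genes over those 26125 sites was not computed, so that value has no background beside it.

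Promoter sites had smaller shares of members and of sites ranked lower than all shared sites had. Of the 2092 shared sites at a promoter window 98 (4.68%) were members and 107 (5.11%) were ranked lower, against 6.68% and 6.29%. Their median percentile lay between 57.7 and 61.4 in all 6 libraries. By the mean over both groups, 5.03% were members up to 20, 6.61% between 20 and 40 and 4.82% between 40 and 60. Above 60, where 1049 of them lay, it was 3.91%. Sites under 500 bp wide after merging had 188 members among 1393 (13.5%) and 26 sites ranked lower (1.87%), while those of 1000 bp or more had 257 of 5467 (4.70%) and 6.91%. Width belongs to the same peak calls as the score: narrow sites were weak, with median percentiles of 9.28 to 10.4 in fed and 13.7 to 15.98 in starved libraries. The merged width of members had a median of 755 bp, against 827 bp over all shared sites and 870 bp for those ranked lower. Per library, the median peak width at members was 632, 554 and 711 bp in fed and 425, 249 and 327 bp in starved livers, and over all shared sites 704, 623 and 788 bp and 419, 254 and 335 bp. Members were thus narrower than the typical shared site in the fed libraries and close to it in the starved ones.

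Spacing differed little. The nearest other site of the 76061 lay a median of 4470 bp from a member and 4528 bp from a shared site, and the nearest other shared site 18116 bp and 17097 bp away. Of the members 1332 (90.1%) were made of exactly 1 peak per library, against 88.9% of all shared sites. The spread between libraries was smaller at members, with a median SD of 6.04 points among fed and 6.36 among starved percentiles against 8.40 and 8.71 over all shared sites, which the rule favours because it asks for groups that do not overlap. Annotated microRNA hairpins lay within 3 members, those of Mir130a on chromosome 2, Mir12181 on chromosome 11 and Mir6993 on chromosome 19. The differences there were 19.4, 21.7 and 12.3 points. Shared sites held 33 such hairpins in all, of which 3 lay in sites ranked lower.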

How the data were processed

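CTCF ChIP-seq of 3 fed and 3 starved mouse livers entered as 1 deposited peak list per library, grouped by sample title. Each list gives positions and a score per peak, and the score is the authors' deposited value; the sources used here do not give what it measures. The submitters' processing notes name the build mm10 and the tools HOMER, MACS2, SAMtools, bedtools 2.17, BWA 0.7.5a and FastQC without their roles. Read depth, the use of the inputs and the treatment of duplicate and multiply mapped reads are not stated there either. Whether the libraries of a group are separate mice is not in the labels, so the spread between them may be technical.

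Merging, ranking and the member rule are given with the results; equal scores shared their mean rank. Coordinates count from 1. Gene positions (49993 genes) and promoter sequences (32851 windows) came from RefSeq, GRCm38.p6; the 45 members on chromosome 18 were not analysed here for promoters. Motif matches were searched on both strands. Shares carry exact (Clopper-Pearson) 95% intervals. No test was made, because the rule uses the contrast of fed and starved livers. The members and gene lists were chosen with earlier results of these data known. Named sites were the 12 members of largest difference, the 5 of widest gap, up to 12 near listed genes (14 of all 16 are given, and the others are not reported here), 3 on each side of the limit, the 5 highest in starved lists and up to 8 at promoters. The scripts were tested on simulated data, with numpy 2.4.6, scipy 1.17.1, pandas 2.3.3 and matplotlib 3.10.9 on Python 3.11.15.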

Additional observations from a re-analysis of the deposited data

How the results depend on the processing

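The whole-list percentile gave 2 members and 14039 sites ranked lower, with 50% of the 2 inside a gene, 0% on X and 0 near listed genes. Of 39 named sites, 17 had a starved minus fed difference below 0 under it, in percentile points -29.4 at Unc93a2, -24.4 at C1qc and C1qa, -23.8 at Rarb, -13.7 at Emilin2 and Lpin2, -10.4 at Litaf, -8.66 at Tmem94, -8.28 at Galnt10 and -6.16 at Ctcfl. The others were -4.51 at Cry2, -3.45 at Pik3r1, -2.84 at the intergenic site of chromosome 8, -2.64 at the intergenic site of chromosome 15, -2.44 at Arhgef1 and Cd79a, -2.16 at Carmil2 and Ctcf, -1.72 at Ccdc65, -1.67 at the intergenic site of chromosome 16 and -1.18 at Clcn4. Fed lists hold more peaks outside the shared sites, which this ranking counts. Keeping peaks scoring at least 30.4 left 9577 shared sites, with 631 members, 572 ranked lower, 54.5% of members near a gene end, 0.475% on X (0.835% of the shared sites), 6 near listed genes and 40.9% of promoter windows with the motif. Of the 631, 512 overlapped members of the 1478. At 22 of the 30 named sites with a value there, the difference moved by more than 1 SD, for example to 15.4 at Slc6a16, 19.1 at Vcan, 8.25 at the intergenic site of chromosome 8 and 49.5 at Apob; without starved 2 it did so at 7 of 39. A difference of 20 gave 593 members and 605 ranked lower. With windows of 1 and 20 kb, 20.4% and 81.7% of members lay near a gene end. Peaks trimmed to 200 bp gave a motif share of 41.5% of 65 windows, and no cause was tested. The motif share under all shared sites was not computed in the changed settings, so the members' shares there have no background beside them. Merging within 500 bp, summed scores, lists of equal length, autosomes alone and a difference of 5 left the counts within 1.5 times, at 1309 to 1789 members and 1246 to 1597 ranked lower. With lists of equal length, 31 of the 39 named sites were still shared. Not among them were the seventh site of chromosome Y and those at Ddc, Slc6a16, Ctcfl, Tmem94, C1qc, Unc93a2 and Rarb.

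The replicate block, which compared same-numbered libraries as pairs in place of all 3 with all 3, gave 2345 members and 2411 ranked lower; it is a looser rule, and the numbers are not stated to pair libraries. Leaving out each library gave 2213 to 2730 members (9.95 to 10.7% of the shared sites) and 2157 to 2658 ranked lower. Of these members 47.0 to 51.3% lay near a gene end, 58.1 to 63.4% inside a gene and 2.51 to 3.36% on X. The shares near a gene end and inside a gene were not computed over the shared sites of these settings. Near listed genes there were 16 to 39, with no count of the shared sites there, and the motif share was 20.4 to 34.0%. Between 1312 and 1399 of the members in these settings overlapped the 1478, which the looser separation nearly ensures. Read depth is unknown, so how it limits the ranks of weak sites was not tested.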
